A study of Rattus norvegicus with 24 samples.

Results

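The let-7 family guide strands were described in rat brain 3 months after traumatic brain injury (TBI). A guide strand is the arm of a miRNA hairpin that is mainly loaded into Argonaute to silence mRNAs, and the opposite arm is the passenger strand. Earlier results of these data were known when the family was chosen. Its members were taken by name, as the miRNAs whose names start with rno-let-7 and end in -5p, together with rno-miR-98-5p, which carries the same seed. This gave 8 of the 728 miRNAs listed in both count tables, namely rno-let-7a-5p, rno-let-7b-5p, rno-let-7c-5p, rno-let-7d-5p, rno-let-7e-5p, rno-let-7f-5p, rno-let-7i-5p and rno-miR-98-5p. Small RNA was sequenced from 12 adult male Sprague-Dawley rats. In 6 rats TBI was induced by lateral fluid percussion, a pulse of fluid against the exposed dura, and 6 rats were sham-operated, with the same anesthesia and surgery but no pulse. Each rat gave 1 library from the perilesional cortex and 1 from the ipsilateral thalamus, so the 4 groups of 6 libraries were sham cortex, TBI cortex, sham thalamus and TBI thalamus. The TBI rats had been selected by MRI for a chronic inflammatory rim around the lesion, so they stand for such rats and not for every injured rat. Samples were pieces of whole tissue, in which fewer cells of a type and less RNA per cell cannot be told apart.

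The let-7 miRNAs are among the most conserved of animals. They are low in stem cells and rise as cells differentiate, and the RNA-binding protein LIN28 blocks the maturation of their precursors. In adult brain they are abundant in neurons and glia, and their best known targets include Lin28, Hmga2 and Ras mRNAs. Target choice rests mainly on the seed, bases 2 to 8 of the guide. All 8 members matched RefSeq entries of assembly GRCr8, all were 22 bases long, and all held the same seed. The 8 sequences are shown, 5′ to 3′ with the seed in capitals, because how few bases separate the members bears on every value that follows:
rno-let-7a-5p: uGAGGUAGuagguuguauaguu
rno-let-7c-5p: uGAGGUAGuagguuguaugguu
rno-let-7b-5p: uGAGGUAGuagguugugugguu
rno-let-7d-5p: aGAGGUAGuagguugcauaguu
rno-let-7e-5p: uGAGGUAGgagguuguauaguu
rno-let-7f-5p: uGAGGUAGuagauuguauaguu
rno-let-7i-5p: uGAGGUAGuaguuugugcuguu
rno-miR-98-5p: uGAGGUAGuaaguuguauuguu

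Positions were counted from 1 at the 5′ end, with the base of rno-let-7a-5p written first. rno-let-7c-5p differed from rno-let-7a-5p by A19G, rno-let-7e-5p by U9G and rno-let-7f-5p by G12A. rno-let-7b-5p carried A17G and A19G, rno-let-7d-5p carried U1A and U16C, and rno-miR-98-5p carried G11A and A19U. rno-let-7i-5p stood farthest from rno-let-7a-5p, with G12U, A17G, U18C and A19U. Over the 28 pairs of members the number of differing bases ran from 1 to 6, and 4 pairs, which involved 5 members, differed by 1 base. Rules for reads that match several members, or that match with a mismatch, are not given in the sources used here, so single values of these close members are uncertain where reads could be shared between them. rno-let-7g-5p, which carries the same seed in RefSeq, is not among the 728 miRNAs listed in both count tables. It could not be analysed and is missing from the family sum, and where any reads of it were counted is not known.

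In the GRCr8 annotation the members lie in small clusters. rno-let-7a-5p, rno-let-7f-5p and rno-let-7d-5p share 1 cluster within a long noncoding RNA gene, and a second copy of rno-let-7a-5p lies beside rno-miR-100-5p. rno-let-7c-5p is encoded once near rno-miR-125b-5p and once beside rno-let-7b-5p. rno-let-7e-5p lies between rno-miR-99b-5p and rno-miR-125a-5p inside Spaca6, and rno-miR-98-5p lies beside the second copy of rno-let-7f-5p inside Huwe1, a ubiquitin ligase gene. rno-let-7i-5p stood without another let-7 gene near it. Counts of rno-let-7a-5p, rno-let-7c-5p and rno-let-7f-5p therefore each pool the product of 2 genes.

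Libraries held 744564 to 4069284 miRNA reads in cortex and 523298 to 4139901 in thalamus. The shallowest thalamus libraries were those of sham rat 55 and TBI rat 56, with 523298 and 538194 reads. Levels are given as counts per 1000000 miRNA reads (CPM) after trimmed mean of M-values (TMM) scaling over all 24 libraries, or as the percent of miRNA reads without that scaling. TMM factors ran from 0.718 to 0.923 in sham cortex and from 0.854 to 1.25 over both thalamus groups, so a member could be lower in sham thalamus on 1 scale and higher on the other. The labelled regions were checked with miRNAs known from other work to mark brain cell types. The 3 oligodendrocyte markers summed to between 3482 and 4987 CPM over all cortex libraries and to between 10135 and 17583 CPM over all thalamus libraries. The 6 leukocyte markers summed to 1081 to 1525 CPM in sham thalamus and 1470 to 2821 CPM in TBI thalamus, and to 1171 to 1619 CPM in sham cortex and 1589 to 2300 CPM in TBI cortex. The liver marker stayed at or below 22.4 CPM in every library.

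The family was abundant in all 4 groups, and 2 members carried about as many reads as the other 6 together. In sham cortex the 8 guides took a median 9.41% of miRNA reads (range 7.56% to 12.3%), and in TBI cortex 10.6% (9.41% to 14.0%). In thalamus they took 11.6% in sham (10.2% to 14.5%) and 13.8% in TBI (10.9% to 16.0%). In sham cortex rno-let-7f-5p made up 29.5% ± 2.31 of let-7 reads and rno-let-7i-5p 24.4% ± 3.13 (SD, n = 6). rno-let-7c-5p followed with 16.0% ± 1.50 and rno-let-7a-5p with 12.8% ± 0.668. rno-let-7b-5p gave 6.87% ± 2.12, rno-let-7d-5p 6.22% ± 0.782 and rno-let-7e-5p 3.47% ± 0.498 of let-7 reads, each as mean ± SD (n = 6), while rno-miR-98-5p gave 0.556% to 0.795%. Among all 728 miRNAs, rno-let-7f-5p ranked 7 or 8 by mean level in each group and rno-let-7i-5p between 5 and 9, whereas rno-miR-98-5p ranked between 87 and 95. These shares count reads, and how evenly the library kit captures each sequence was not measured.

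The order of the 2 leading members turned between regions. rno-let-7f-5p exceeded rno-let-7i-5p in 6 of 6 sham cortex and 6 of 6 TBI cortex libraries, although the ranges of their levels overlapped. In thalamus rno-let-7i-5p was above rno-let-7f-5p in 6 of 6 sham and 5 of 6 TBI libraries. rno-let-7a-5p exceeded rno-let-7b-5p and rno-let-7d-5p exceeded rno-let-7e-5p in 6 of 6 libraries of each group. The pair rno-let-7b-5p and rno-let-7d-5p had no fixed order, with rno-let-7b-5p the higher in 3 of 6 sham cortex, 6 of 6 TBI cortex and 4 of 6 TBI thalamus libraries, and rno-let-7d-5p the higher in 6 of 6 sham thalamus libraries. Over all libraries rno-let-7d-5p ran from 5290 to 10024 CPM, rno-let-7e-5p from 2319 to 5668 CPM and rno-miR-98-5p from 311 to 1180 CPM. The range of rno-miR-98-5p lay below that of rno-let-7e-5p in every group.

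**Figure D1:**
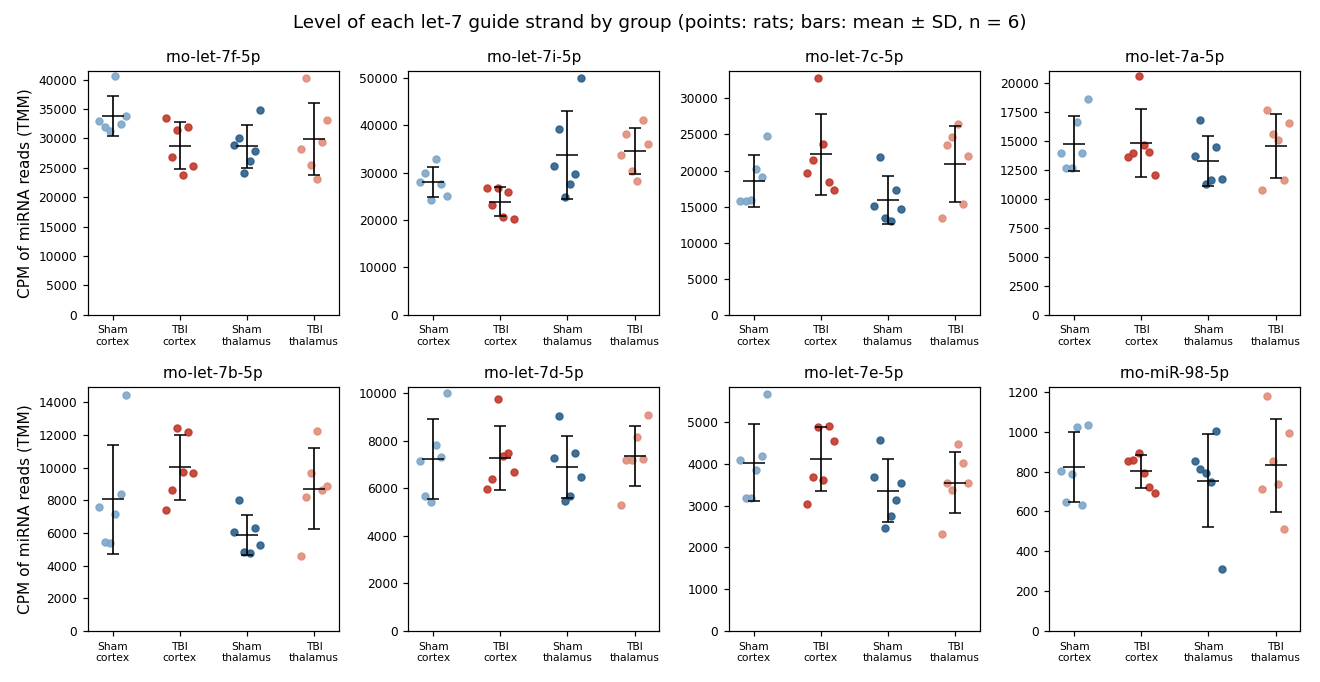
Level of each of the 8 guide strands, in CPM of miRNA reads after TMM scaling (vertical axes, linear from 0, a separate scale in each panel), in the 4 groups. Points are rats, bars the mean and SD of 6 rats. TBI and sham overlap in every panel and region. Cortex and thalamus overlap in every panel except for rno-let-7i-5p in TBI rats. There the TBI thalamus points (28210 to 41029) all lie above the TBI cortex points (20096 to 26720). The share of all miRNAs that separate these groups is not given here.

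The first comparison asked whether members differed between TBI and sham rats in the perilesional cortex. All 8 passed the filter on low counts here and in every other comparison. No let-7 guide passed an adjusted p of 0.05 (edgeR quasi-likelihood test, Benjamini-Hochberg adjustment over all miRNAs), while 22 of the 371 miRNAs tested did (5.93%). That number ran from 4, without sham rat 38, to 30, without sham rat 55, when 1 rat was left out, and no member was called in any of these fits. At an unadjusted p under 0.05 there were likewise 0 of 8 members, against 80 of 371 miRNAs (21.6%), and DESeq2 called 0 members and 40 miRNAs. The median log2 fold change of the 8 members was 0.06, beside 0.05 for all miRNAs tested. 6 members were above 0 and 2 below, a tally that depended on the libraries and the scaling. It was 2 above and 6 below without sham rat 34 (median -0.04), TBI rat 45 (-0.08) or TBI rat 56 (-0.04), or when tRNA features were tested together with the miRNAs (-0.08), and 8 above and 0 below with library size as the only scaling (0.25).

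rno-let-7b-5p, which has been described outside cells as a ligand of Toll-like receptor 7, had the largest estimate in cortex. Its level ran from 5387 to 14454 CPM in sham cortex (median 7375) and from 7430 to 12433 CPM in TBI cortex (median 9694). All 6 TBI libraries were above the sham median, but 1 sham rat was above every TBI rat and the groups overlapped. The log2 fold change was 0.36 (SE 0.23, 95% interval -0.13 to 0.86, edgeR adjusted p = 0.334). Without the sham library of rat 55 it was 0.55, with an edgeR adjusted p of 0.0783.

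rno-let-7c-5p ran from 15733 to 24729 CPM in sham cortex (median 17520) and from 17319 to 32818 CPM in TBI cortex (median 20600). It was above the sham median in 5 of 6 TBI libraries, and the groups overlapped. Its log2 fold change was 0.31 (SE 0.17, interval -0.05 to 0.67, edgeR adjusted p = 0.277), and 0.11 without TBI rat 45, whose library had the highest level of this member.

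The 2 most abundant members had estimates on the other side of 0. rno-let-7f-5p ran from 31333 to 40633 CPM in sham cortex (median 32751) and from 23717 to 33545 CPM in TBI cortex (median 29125). 3 of 6 TBI libraries were below every sham library, and the log2 fold change was -0.19 (SE 0.10, interval -0.41 to 0.03, edgeR adjusted p = 0.269). rno-let-7i-5p ran from 24118 to 32883 CPM in sham cortex (median 27785) and from 20096 to 26720 CPM in TBI cortex (median 24517). None of the 6 TBI libraries reached the sham median, and the log2 fold change was -0.19 (SE 0.11, interval -0.42 to 0.05, edgeR adjusted p = 0.295). With library size as the only scaling the median of all miRNAs moved from 0.05 to 0.25, and these estimates became 0.02 and 0.03, so their direction depended on the scaling. The other 4 members, rno-let-7a-5p, rno-let-7d-5p, rno-let-7e-5p and rno-miR-98-5p, had log2 fold changes between 0.01 and 0.08, with edgeR adjusted p-values between 0.848 and 0.983. For these the 95% intervals lay between -0.31 and 0.47.

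The ratio of 2 members within a library does not depend on scaling. In cortex rno-let-7c-5p and rno-let-7a-5p differ by 1 base, and reads of the first per read of the second ran from 1.13 to 1.37 in sham and from 1.31 to 1.61 in TBI, so the groups overlapped. Of the 28 ratios between members, 0 separated all TBI from all sham cortex libraries, while 3.83% of the 4278 ratios among the 93 miRNAs at least as abundant on average as rno-miR-98-5p did.

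In the ipsilateral thalamus, a region joined to the injured cortex by long fiber tracts, the same question was asked. Again 0 of 8 members passed an adjusted p of 0.05 with edgeR and 0 with DESeq2, where 2 of 390 miRNAs (0.513%) and 3 miRNAs were called. At an unadjusted p under 0.05, 1 of 8 members passed, against 20 of 390 miRNAs (5.13%). All 8 estimates were above 0, with a median log2 fold change of 0.11 beside -0.03 for all miRNAs tested, of which 184 of 390 were above 0. Without sham rat 34 the median was 0.04, with 5 members above 0 and 3 below, and omission of each other rat gave 8 above 0 and medians up to 0.25, reached without sham rat 32. Members share libraries, scaling factors and possibly reads, so 8 estimates on 1 side are not 8 independent values.

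The member with an unadjusted p under 0.05 was rno-let-7b-5p. Its level ran from 4768 to 8052 CPM in sham thalamus (median 5671) and from 4584 to 12235 CPM in TBI thalamus (median 8762). 5 of 6 TBI libraries exceeded every sham library, and the sixth, from rat 22, was below every sham library. The TBI mean was 1.48 times the sham mean, with a log2 fold change of 0.56 (SE 0.21, 95% interval 0.11 to 1.00, unadjusted p = 0.0183, edgeR adjusted p = 0.589). Leaving out rat 22 gave 0.77 (edgeR adjusted p = 0.118), and no omission of 1 rat took the adjusted p under 0.05.

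rno-let-7c-5p, which shares a cluster with rno-let-7b-5p and differs from it by 1 base, ran from 13045 to 21832 CPM in sham thalamus (median 14914) and from 13448 to 26381 CPM in TBI thalamus (median 22740). 4 of 6 TBI libraries were above every sham library. Its log2 fold change was 0.39 (SE 0.19, interval -0.02 to 0.79, edgeR adjusted p = 0.781). The other 6 members had log2 fold changes between 0.03 for rno-let-7i-5p and 0.14 for rno-miR-98-5p, whose interval ran from -0.42 to 0.70. rno-let-7a-5p, for example, ran from 11280 to 16827 CPM in sham and from 10826 to 17719 CPM in TBI thalamus, so that the groups overlapped almost entirely. Of the 28 ratios between members 0 separated TBI from sham thalamus, beside 0.818% of the ratios among abundant miRNAs. Of the 6 leukocyte markers 5 were tested in thalamus and 2 were called higher in TBI with edgeR, and their part in the difference of rno-let-7b-5p was not tested.

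Whether the injury effect differed between thalamus and cortex was asked of the 24 libraries together, as an interaction term. It gave 0 calls among the 8 members and 0 among the 407 miRNAs tested (0%) with edgeR, and likewise 0 with DESeq2. At an unadjusted p under 0.05 there were 0 of 8 members and 17 of 407 miRNAs (4.18%). 8 members had an interaction above 0 (median 0.15, beside -0.01 for all miRNAs tested). With library size as the only scaling it was 3 above and 5 below (median -0.10, beside -0.27), and without rat 55 it was 2 above and 6 below (median -0.03). The member with the smallest p was rno-let-7f-5p, with a difference of 0.30 on the log2 scale (interval -0.09 to 0.68, unadjusted p = 0.122, edgeR adjusted p = 1.00). Differences of up to 0.91 for rno-let-7b-5p lay within the intervals, so the data neither show a difference nor bound it closely.

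**Figure D2:**
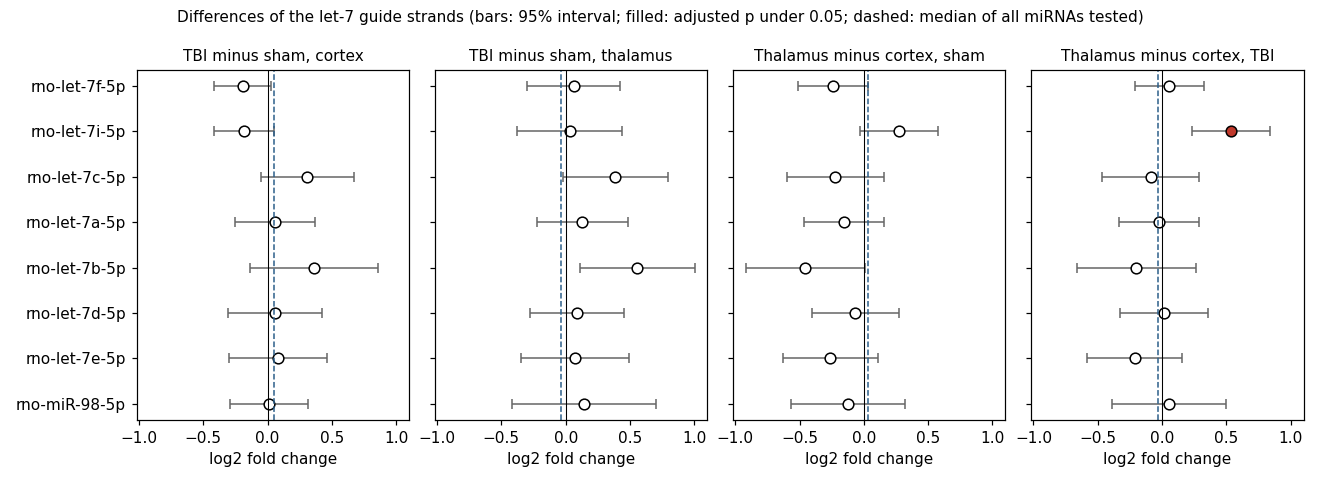
Log2 fold change of each guide strand (horizontal axes) in the 4 comparisons, with 95% intervals from edgeR. Filled points passed an adjusted p of 0.05, and the dashed line is the median of all miRNAs tested. The filled point is rno-let-7i-5p, at 0.53 between TBI thalamus and TBI cortex.

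Between the regions, rno-let-7i-5p stood out from the other guides. It was higher in thalamus than in cortex in TBI rats, where it was the only member called. Its level ran from 20096 to 26720 CPM in TBI cortex (median 24517) and from 28210 to 41029 CPM in TBI thalamus (median 34829), so the groups did not overlap. The mean was 1.45-fold higher in thalamus, and each of the 6 TBI rats had more in its thalamus than in its cortex. Of the ratios among abundant miRNAs, 17.4% also separated TBI cortex from TBI thalamus. The share of single miRNAs that did so is not given here. The log2 difference of rno-let-7i-5p was 0.53 (SE 0.15, interval 0.23 to 0.84, edgeR adjusted p = 0.00798). The fit had no term for the rat, so the libraries of a rat were not paired in it. 111 of 407 miRNAs tested (27.3%) passed between the regions in TBI rats, so 1 of 8 members is a smaller share than that of miRNAs in general. DESeq2 called the same member, as did every fit that left out 1 rat (0.50 to 0.72 on the log2 scale, edgeR adjusted p 0.00240 to 0.0295).

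In sham rats rno-let-7i-5p ran from 24118 to 32883 CPM in cortex (median 27785) and from 24758 to 49957 CPM in thalamus (median 30486). It was higher in the thalamus of 5 of 6 sham rats, but the ranges overlapped and the log2 difference of 0.27 did not pass (SE 0.15, interval -0.03 to 0.58, edgeR adjusted p = 0.193). The highest sham thalamus value came from the shallow library of rat 55, and without this rat the difference was 0.11 (edgeR adjusted p = 0.607). No member passed an adjusted p of 0.05 in sham rats with edgeR, whereas 102 of 407 miRNAs (25.1%) did. At an unadjusted p under 0.05 there were 0 of 8 members and 142 of 407 miRNAs (34.9%), and DESeq2 called 0 members and 114 miRNAs. The difference between the sham and the TBI regional contrast of rno-let-7i-5p was the interaction value of 0.26 (interval -0.17 to 0.69, edgeR adjusted p = 1.00), so a regional difference particular to TBI rats was not shown.

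The scaling mattered for sham rats. As a percent of miRNA reads rno-let-7i-5p ran from 2.15% to 2.47% in sham cortex and from 2.90% to 4.37% in sham thalamus, and from 1.96% to 2.68% in TBI cortex and from 3.52% to 4.36% in TBI thalamus. On this scale the regions did not overlap in either group of rats, and 12 of 12 rats had a larger share in thalamus. With library size as the only scaling the sham difference was 0.67 (edgeR adjusted p = 1.61e-05). But the median of all 407 miRNAs then also moved, from 0.04 to 0.46, and 167 of them were called. The share of all miRNAs that separate the regions as a percent of reads is not given here. Oligodendrocyte markers were higher in thalamus (3 of 3 called with edgeR in sham and 3 of 3 in TBI rats), and the 4 neuron markers were lower there (3 of 4 called in sham and 4 of 4 in TBI rats). Neuron markers summed to 249324 to 332422 CPM in TBI cortex and to 123193 to 245380 CPM in TBI thalamus. The part of these cell types in the regional difference of rno-let-7i-5p was not tested.

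The other 7 guides were not called between regions. In sham rats all 7 had estimates below 0, from -0.46 for rno-let-7b-5p (SE 0.23, interval -0.92 to 0.01, edgeR adjusted p = 0.151) to -0.07 for rno-let-7d-5p. The median of the 8 members was -0.19, beside 0.04 for all miRNAs tested, and -0.06 without rat 55, when 3 of the 8 were above 0. With library size as the only scaling, 6 of these 7 estimates turned above 0, so no regional direction is given for them. Within rats rno-let-7b-5p was lower in thalamus in 10 of 12 after TMM scaling, but its percent of reads was higher there in 8 of 12. In TBI rats the 7 estimates lay between -0.21 for rno-let-7e-5p and 0.06 for rno-let-7f-5p, and the median of the 8 members was -0.01, beside -0.03 for all miRNAs.

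The contrast between the 2 leading members did not need a scaling. Reads of rno-let-7i-5p per read of rno-let-7f-5p ran from 0.741 to 0.936 in sham cortex and from 0.796 to 0.872 in TBI cortex. In thalamus the ratio ran from 1.02 to 1.43 in sham and from 0.947 to 1.40 in TBI rats. Every one of the 12 thalamus libraries was above every one of the 12 cortex libraries, and the TBI and sham ranges overlapped within each region. This pair was singled out after the values were seen and is given without a test. Of the 28 ratios between members it was the only 1 that separated the regions over all rats, while 10.1% of the ratios among abundant miRNAs did so.

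**Figure D3:**
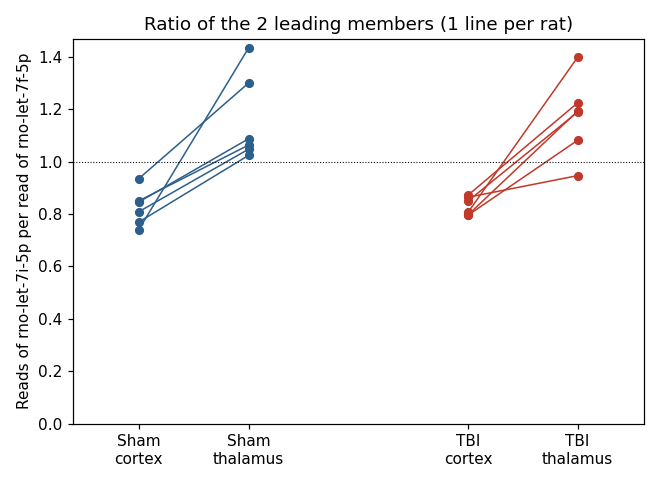
Reads of rno-let-7i-5p per read of rno-let-7f-5p (vertical axis, linear from 0) in the cortex and the thalamus of each rat, joined by a line, for 6 sham and 6 TBI rats. Cortex points lie between 0.741 and 0.936 and thalamus points between 0.947 and 1.43.

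In sham rats the ratio of rno-let-7b-5p to rno-let-7d-5p also separated the regions, from 0.917 to 1.44 in cortex and from 0.810 to 0.893 in thalamus, whereas in TBI rats it overlapped, from 1.24 to 1.63 in cortex and from 0.866 to 1.50 in thalamus. In sham rats 2 of the 28 ratios between members separated the regions, beside 21.6% of the ratios among abundant miRNAs, and in TBI rats 1 of 28, beside 17.4%. Within the family, rno-let-7i-5p made up 24.4% ± 3.13 of let-7 reads in sham cortex and 30.8% ± 4.32 in sham thalamus, and 21.4% ± 1.81 in TBI cortex and 28.9% ± 4.47 in TBI thalamus (SD, n = 6). rno-let-7c-5p gave 19.7% ± 3.01 in TBI cortex and 17.3% ± 3.77 in TBI thalamus, against 16.0% ± 1.50 and 14.7% ± 1.84 in the sham groups. rno-let-7f-5p gave 25.8% ± 2.95 in TBI cortex and 24.8% ± 3.68 in TBI thalamus, against 29.5% ± 2.31 and 26.6% ± 1.90 in sham. The ranges of each of these shares overlapped between TBI and sham in both regions.

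The family sum overlapped between TBI and sham rats in both regions. It was 115331 ± 13810 CPM in sham cortex and 111970 ± 14966 CPM in TBI cortex (SD, n = 6), a log2 ratio of -0.04. In thalamus it was 108509 ± 17532 CPM in sham and 120429 ± 13703 CPM in TBI rats, a log2 ratio of 0.15. As a percent of miRNA reads the means were 9.58% ± 1.58 and 11.0% ± 1.56 in sham and TBI cortex, and 12.0% ± 1.57 and 13.4% ± 2.01 in sham and TBI thalamus. The overlap held on both scales. Within rats the sum was higher in thalamus than in cortex in 5 of 12 rats after TMM scaling and in 10 of 12 rats as a percent of reads. The sum over members was given no test.

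**Figure D4:**
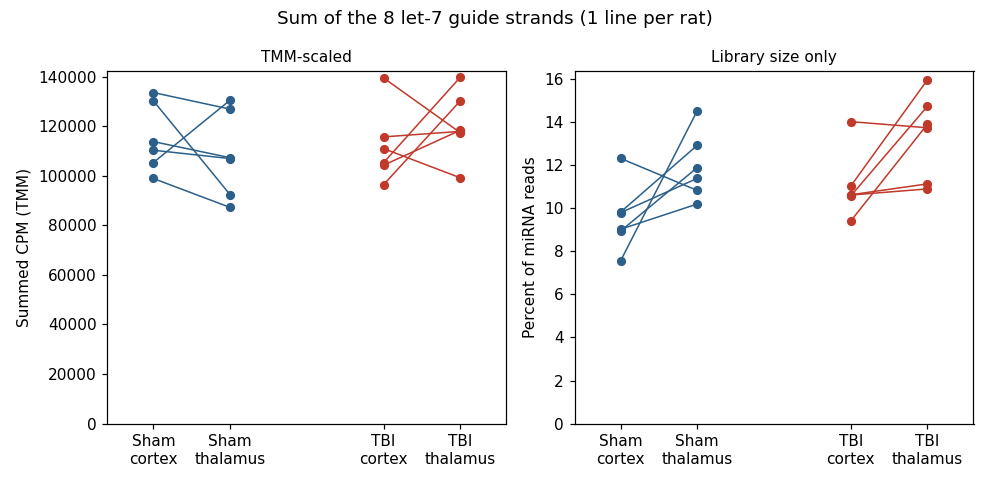
Sum of the 8 guide strands in the cortex and thalamus of each rat, joined by a line, as CPM after TMM scaling (left) and as a percent of miRNA reads (right), both axes linear from 0. On the right the values run from 7.56% to 16.0% and 10 of 12 lines rise, whereas on the left 5 of 12 rise.

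Most members varied together between rats. Pearson correlations of log2 levels, taken as deviations from the 4 group means over 24 libraries, ran from -0.41 to 0.93 over the 28 pairs, with a median of 0.34, and 25 were above 0. The median over all pairs of the 407 miRNAs tested was 0.00. These 407 include miRNAs scarcer than every member, so the 2 medians were not matched for level. The points share libraries, depth and scaling factors, and 2 libraries come from each rat, so the values are descriptions. The highest was between rno-let-7a-5p and rno-let-7c-5p (0.93), which differ by 1 base. rno-let-7b-5p went with rno-let-7e-5p (0.91) and rno-let-7d-5p (0.89), and rno-let-7f-5p with rno-let-7i-5p (0.78). rno-let-7a-5p to rno-let-7e-5p formed 1 block, whose 10 pairs ran from 0.59 to 0.93. rno-let-7f-5p and rno-let-7i-5p stood apart from this block, with values from -0.02, between rno-let-7b-5p and rno-let-7i-5p, to 0.37. rno-let-7a-5p and rno-let-7f-5p, which differ by 1 base and share a cluster, gave this highest value of 0.37. The lowest value was that of rno-let-7i-5p with rno-miR-98-5p (-0.41), which was 0.20 in cortex and -0.57 in thalamus.

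**Figure D5:**
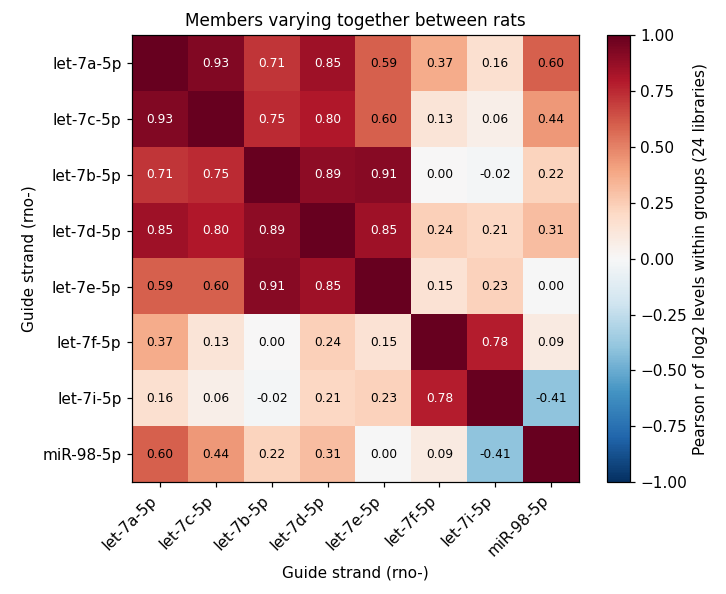
Pearson correlation between members (rows and columns) of log2 levels, as deviations from the group means over 24 libraries, with red above 0 and blue below 0. The block of rno-let-7a-5p to rno-let-7e-5p holds values up to 0.93, rno-let-7f-5p and rno-let-7i-5p reach 0.78 with each other, and rno-miR-98-5p falls to -0.41 with rno-let-7i-5p.

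With the log2 family sum over 24 libraries, rno-let-7a-5p correlated most (0.81) and rno-miR-98-5p least (0.13) of the members. The value of rno-miR-98-5p was 0.64 in cortex, above rno-let-7e-5p (0.59) and rno-let-7i-5p (0.57), and -0.07 in thalamus. Each member is itself part of the sum, so member values cannot be compared with those of miRNAs outside it. The same measure was taken for 384 miRNAs tested outside the family, its passenger strands and the cluster neighbours named below. Those most like the family sum were rno-miR-30c-1-3p (0.62), rno-miR-1839-5p (0.59), rno-miR-219a-2-3p (0.58), rno-miR-30c-2-3p (0.55) and rno-miR-181b-5p (0.50). The least alike were rno-miR-758-3p (-0.56), rno-miR-300-3p (-0.58) and rno-miR-879-5p (-0.61). rno-miR-219a-2-3p is a miRNA of oligodendrocytes, and its value was 0.34 in cortex and 0.72 in thalamus. The other oligodendrocyte markers were tested but were not among the 5 most alike.

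The passenger strands were scarce beside the guides. Their 11 listed forms added up to 0.862% to 2.65% of guide reads in a library, and rno-let-7d-3p alone gave 37.7% to 75.1% of passenger reads. Reads of rno-let-7d-5p per read of rno-let-7d-3p averaged 8.12 ± 2.77 in sham cortex and 8.89 ± 4.05 in TBI cortex, and 9.82 ± 3.31 in sham and 9.41 ± 3.07 in TBI thalamus (SD, n = 6). The same ratio of guide to passenger was 69.1 ± 21.5 for let-7b and 477 ± 222 for let-7i in sham cortex, so rno-let-7d had the least uneven strands of the 4 members with 1 gene of their own that were compared. In TBI cortex the ratio was 91.0 ± 28.0 for let-7b and 359 ± 110 for let-7i, and both ranges overlapped those of sham cortex.

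No passenger strand was called with edgeR or DESeq2 in any comparison. For TBI against sham, 9 of the 11 passed the filter on low counts, and rno-let-7a-2-3p and rno-miR-98-3p, at 0 to 25 and 0 to 32 reads a library, did not. In cortex 1 of 9, rno-let-7f-1-3p, had an unadjusted p under 0.05 (log2 fold change -0.62, SE 0.29, edgeR adjusted p = 0.217), beside 21.6% of all miRNAs tested, and in thalamus 0 of 9 did, beside 5.13%. Between regions 10 of 11 were tested, and 0 in sham rats and 1 in TBI rats, again rno-let-7f-1-3p (log2 difference 0.68, edgeR adjusted p = 0.134), had an unadjusted p under 0.05, beside 34.9% and 34.4% of all miRNAs tested. rno-let-7b-3p, which the study picked from these same libraries as a PCR reference, so that its values here are not independent of that choice, had log2 fold changes of 0.05 in cortex (interval -0.49 to 0.60) and 0.04 in thalamus (interval -0.69 to 0.76). rno-let-7a-1-3p and rno-let-7c-2-3p are the same sequence in RefSeq:
rno-let-7a-1-3p: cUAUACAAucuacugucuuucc
rno-let-7c-2-3p: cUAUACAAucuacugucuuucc

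Their seeds, in capitals, differ from that of the guides. The tables nevertheless list both, with a ratio of 0.880 to 1.31 (median 1.07) over the 24 libraries, so these entries cannot be told apart by sequence.

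Other miRNAs known to be encoded near members were compared as well. Of the 5 cluster neighbours, rno-miR-99a-5p, rno-miR-100-5p, rno-miR-125b-5p, rno-miR-99b-5p and rno-miR-125a-5p, 0 passed between TBI and sham in either region with edgeR. In cortex 2 of 5 had an unadjusted p under 0.05, beside 21.6% of all miRNAs tested, and DESeq2 called 1 of them and 40 of 371 miRNAs. rno-miR-125b-5p was nearest to the threshold, with a log2 fold change of 0.45 in cortex (SE 0.13, interval 0.18 to 0.73, edgeR adjusted p = 0.0530). The value of rno-let-7c-5p was 0.31. Of its 2 genes 1 lies 44461 bases from a rno-miR-125b-5p gene, within the same long noncoding RNA gene. In thalamus 0 of 5 had an unadjusted p under 0.05, beside 5.13%, and DESeq2 called 0. Between regions in TBI rats 27.3% of all miRNAs were called, and of the 5 neighbours 1 was, rno-miR-100-5p, which was higher in thalamus (log2 difference 0.56, SE 0.20, edgeR adjusted p = 0.0365), while rno-let-7a-5p beside it had a difference of -0.03. In sham rats 0 of 5 were called with edgeR and 1 with DESeq2, which called 114 of 407 miRNAs, and 2 had an unadjusted p under 0.05, beside 34.9%. miRNAs annotated antisense to members over at least 18 bases, rno-miR-3596a to rno-miR-3596d, had 1 read together among 47424242 miRNA reads.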

How the data were processed

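Small RNA libraries from 24 samples (12 rats, both regions) were used. Per the methods of the study, the authors trimmed adapters, checked reads with FastQC, mapped them to RGSC3.4 and annotated them with miRBase 20. The aligner and the treatment of multiply matching reads are not given in the sources used here. The authors deposited whole read counts per miRNA, and their scaled tables of the same libraries were not used here. The members and lists were chosen with earlier results of these data known. Groups and rat numbers came from the sample titles.

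Counts were tested with edgeR 4.0.16 in R 4.3.3 (filterByExpr, TMM, robust quasi-likelihood F-test), per region for TBI against sham and over 24 libraries for region and interaction, with Benjamini-Hochberg adjustment over all miRNAs tested. SE was taken as |log2 fold change| / sqrt(F). DESeq2 1.42.0, other scalings and filters and omission of rats were alternatives. The fit was tested on simulated data with log2 changes of 1 up or down only, so smaller changes, such as those of the members, were not covered. Named were the members, their passenger strands, cluster neighbours and sequence relatives, and the 5 most and 3 least alike miRNAs. Deviations from group means correlated at a median of 0.38 between the libraries of a rat (-0.18 to 0.64, above 0.1 in 8 of 12), and the rat was a block in 1 alternative because both libraries came from the same animal. For TBI against sham, intervals are 95% intervals over rats. The region and interaction intervals come from the fit over 24 libraries without a term for the rat. They therefore treat the libraries of a rat as independent.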

Additional observations from a re-analysis of the deposited data

Results flagged for a closer look

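Each member and the family sum were examined for a single library far from its group of 6, defined as a gap to the nearest library that, as a share of the group's whole range, passes Dixon's 95% critical value for 6 samples. This applied to 4 of 36 groups, and chance gives about 1 in 20 groups, or 1.8 of 36. rno-let-7a-5p was highest in TBI cortex in rat 45, at 20607 CPM against 14654 CPM in the next rat, a gap of 0.699 of the range. rno-let-7b-5p was highest in sham cortex in rat 55, at 14454 CPM against 8369 CPM (0.671). rno-let-7f-5p was highest in sham cortex in rat 38, at 40633 CPM against 33860 CPM (0.728). rno-miR-98-5p was lowest in sham thalamus in rat 55, at 311.1 CPM against 749 CPM (0.631), which rests on 139 reads in the library of 523298 miRNA reads.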

How the results depend on the processing

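No alternative and no omission of a rat gave a member a call for TBI against sham or for the interaction, and rno-let-7i-5p remained the only member called between regions in TBI rats under every one. Over the 8 members and 5 comparisons, other scalings, filters, sample sets and tools gave 304 values, of which 273 kept their direction and side of the threshold, 30 turned direction without being called and 1 was newly called. The new call was rno-let-7i-5p in sham rats with library size as the only scaling, which made the number called there 1 in place of 0. The same scaling gave 0.015 for rno-let-7f-5p and 0.033 for rno-let-7i-5p in cortex for TBI against sham, 0.35 for rno-let-7d-5p between regions in sham rats, 0.15 for rno-let-7a-5p between regions in TBI rats, and log2 ratios of the family sum of 0.21 (TBI against sham, cortex) and 0.32 (thalamus against cortex, sham). rno-let-7a-5p between regions in TBI rats was also above 0 with median-of-ratios scaling (0.032), with DESeq2 (0.032) and with the 12 libraries of the contrast alone (0.11). The cause of these turns was not tested beyond the shift of the median of all miRNAs. With the rat as a replicate block, which pairs the libraries of an animal, rno-let-7i-5p differed by 0.53 (edgeR adjusted p = 0.00914) in TBI rats and by 0.24 (edgeR adjusted p = 0.241) in sham rats, and no call changed. Leaving out single rats, 46 of 480 values turned direction, none of them called. The ranges were -0.061 to 0.26 for rno-let-7i-5p between TBI and sham thalamus, -0.22 to 0.078 for rno-let-7d-5p between regions in sham rats, -0.035 to 0.19 for rno-let-7a-5p between regions in TBI rats, and -0.049 to 0.45 for the interaction of rno-let-7b-5p. Without rats 55 and 56, an alternative chosen after seeing the data, rno-let-7d-5p was 0.088 between regions in sham rats, rno-let-7a-5p was 0.0048 between regions in TBI rats, and rno-let-7i-5p was 0.50 there (edgeR adjusted p = 0.0104). The number of all miRNAs called for TBI against sham in cortex was 22 in the fit reported, 39 with library size alone, 40 with DESeq2 and 5 with all 24 libraries in 1 fit. Without 1 rat it ran from 4 to 30 (30 without sham rat 55), with 4 without sham rat 38, 5 without sham rat 50, 6 without TBI rat 24, 7 without sham rat 26, 8 without sham rat 32, 11 without TBI rat 45, 12 without TBI rat 52 and 15 without sham rat 34. In thalamus it was 2, with 0 without sham rat 26, 32 or 34 and 1 without sham rat 38, and 1 with a minimum mean count of 50 and 5 with all 24 libraries. Between regions in sham rats it was 102, and 167 with library size alone. With 6 rats a group, a member could differ by as much as its interval allows without being called. rno-miR-98-5p had the fewest reads, 139 to 3832 a library, and the part of depth in the other members was not tested.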
